A study of Mus musculus with 6 samples.

Results

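The set described here holds 10 genes whose products carry fatty acids into cells, bind them there or release them from lipoproteins: Cd36, Slc27a1, Slc27a2, Slc27a4, Fabp1, Fabp3, Fabp4, Fabp5, Lpl and Angptl4. They were chosen by symbol from 55401 genes in the deposited tables, and all 10 were among the 17194 genes that passed the filter on low counts. Their levels come from poly(A)-selected RNA of kidney tissue, sequenced in 2 groups of 3 libraries that the labels call biological replicates. Both groups are mice made diabetic with streptozotocin, a toxin that destroys the insulin-producing beta cells. The WT/Sed group is wild type, and the Cdo1KKO/Sed group carries the genotype named Cdo1KKO, which the design text describes as concerning Cdo1 of the renal tubule. Cdo1 encodes cysteine dioxygenase, the enzyme that starts the conversion of cysteine to taurine. The comparison asks which pathways depend on tubular Cdo1 in diabetic kidney. Sed is not spelled out. How Cdo1 was altered and under which promoter, and how old and of which sex the mice were, is not given in the sources used here.

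Proximal tubule cells meet most of their energy demand by oxidising fatty acids, which they take up from blood and from filtered albumin. Fatty acids held in lipoproteins are first released by lipoprotein lipase (Lpl) on the capillary wall, and Angptl4 is a secreted inhibitor of that enzyme. Fatty acids enter cells with the help of the scavenger receptor CD36 and of the SLC27 proteins, which also couple them to coenzyme A, and small binding proteins of the FABP family carry them through the cytosol. Many of these genes are targets of the PPAR nuclear receptors, which are themselves activated by fatty acids and bind DNA as partners of RXR at a direct repeat of the half-site AGGTCA with 1 base between the copies.

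The libraries held 28145261 to 43872779 counts. Levels that compare libraries are CPM, counts relative to the library size as scaled by TMM, and levels that compare genes are the deposited TPM, which also divide by gene length. Fold changes compare Cdo1KKO/Sed with WT/Sed on the log2 scale (a negative value is lower in Cdo1KKO/Sed) with an approximate SE, its size over the root of the F statistic, and with 95% intervals from the same SE. A gene is said to rise or fall where its Benjamini-Hochberg adjusted p in edgeR's quasi-likelihood test, over all genes tested, was under 0.05. Cdo1 stood at 181, 191 and 180.5 CPM in the WT/Sed libraries and at 109, 118 and 103 CPM in the Cdo1KKO/Sed libraries, without overlap (-0.74 ± 0.06, adjusted p = 4.64e-06), and was still counted in every Cdo1KKO/Sed library. Kidney markers were present throughout, the 12 proximal tubule markers summing to 41329 to 47531 CPM in WT/Sed versus 28474 to 31655 CPM in Cdo1KKO/Sed. Over all genes the median log2 difference was 0.0078 with TMM, 0.18 with library size as the only scaling and 0.19 on log2(TPM + 1), so directions are relative to the median gene.

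Promoter sequence was held for 6 of the members in RefSeq (GRCm38.p6): Cd36, Fabp1, Fabp3, Slc27a1, Slc27a2 and Slc27a4. The stretches printed are upstream of the RefSeq start site and outside the exons of the gene in GENCODE M21. They show a member that fell strongly (Fabp1), one with a small change (Cd36) and one that was not called (Slc27a4). The Cd36 stretch lies between exons inside the GENCODE M21 span of the gene (17781690 to 17888801). Its RefSeq start is thus not the outermost start of that model. Capitals mark matches on either strand to the half-site AGGTCA, which reads TGACCT on the other strand, or to the spaced repeat AGGNCANAGGNCA, which can contain a half-site. Letters run from 5′ to 3′ along the strand of the gene, from chr6:71199629-71199826 (plus), chr5:17835897-17836146 (minus) and chr2:29802384-29802633 (plus).
Fabp1: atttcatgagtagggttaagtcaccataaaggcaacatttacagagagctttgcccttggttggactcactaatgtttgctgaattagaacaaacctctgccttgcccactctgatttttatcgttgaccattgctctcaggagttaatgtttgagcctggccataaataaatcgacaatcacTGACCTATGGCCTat
Cd36: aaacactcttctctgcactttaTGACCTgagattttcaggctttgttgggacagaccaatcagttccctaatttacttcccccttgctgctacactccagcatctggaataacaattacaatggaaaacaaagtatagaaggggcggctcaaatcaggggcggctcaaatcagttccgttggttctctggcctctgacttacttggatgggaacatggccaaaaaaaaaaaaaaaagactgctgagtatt
Slc27a4: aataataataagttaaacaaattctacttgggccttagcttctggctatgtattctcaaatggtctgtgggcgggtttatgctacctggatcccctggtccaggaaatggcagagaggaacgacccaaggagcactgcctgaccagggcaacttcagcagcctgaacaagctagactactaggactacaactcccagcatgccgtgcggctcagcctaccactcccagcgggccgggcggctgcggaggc
Among the 8 windows of the 6 members, each running from 250 bases before to 50 bases after the start, only the Fabp1 window held the spaced repeat. It begins 67 bases before the start and reads AGGCCATAGGTCA on the minus strand. Of all 32851 windows of this length, 0.381% held such a repeat. The half-site alone lay in 16.3% of windows, and among members in those of Fabp1, Cd36 and Slc27a2. The windows of Fabp3 and Slc27a1, which both fell, and of Slc27a4 held neither the repeat nor the half-site. A second half-site of Fabp1, 9 bases before the start, lies in an exon of the GENCODE model and is not shown. The half-site of Slc27a2, 220 bases before the RefSeq start, also lies in an exon of the GENCODE model. The same holds for the whole stretch before the start in the Slc27a2 window, so none of it is shown. These matches are descriptions of the letters and do not show binding.

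Of the 10 members, 6 fell, 1 rose and 3 did not pass the test. Slc27a2, Angptl4, Fabp1, Fabp3, Slc27a1 and Cd36 fell, Fabp5 rose, and Lpl, Fabp4 and Slc27a4 were not called. Over all genes tested, 37.4% were called, with 18.9% rising and 18.5% falling. The median log2 fold change of the members was -0.30 against 0.0078 for all genes tested. The groups did not overlap in CPM for 8 members, all but Lpl and Fabp4, against 50.3% of all genes. The falls of Slc27a2, Angptl4 and Fabp3 and the rise of Fabp5 were called under all 17 alternatives run, whereas those of Cd36, Slc27a1 and Fabp1 were not, as given with each gene.

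**Figure D1:**
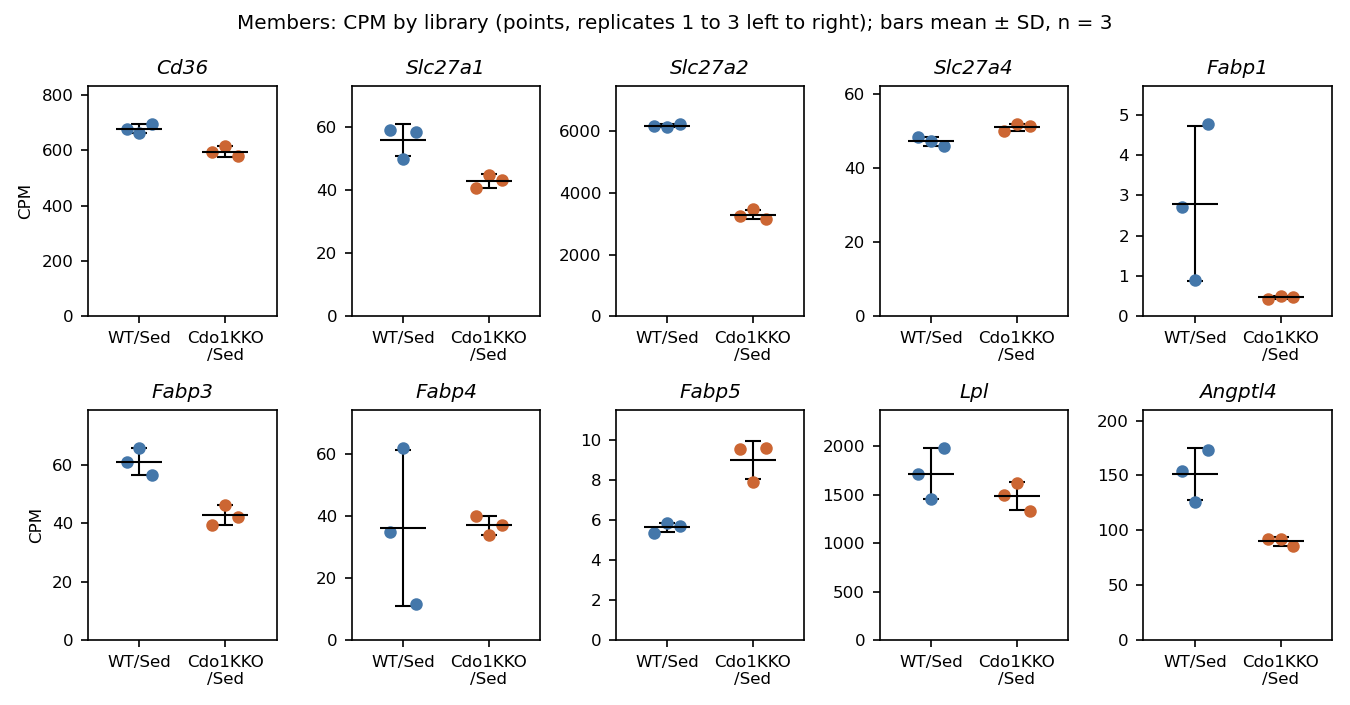
CPM of each member in each library, with its own vertical axis from 0; points are libraries, horizontal bars the mean of 3 and error bars the SD. The Slc27a2 points fall from about the 6179 CPM mean of WT/Sed to 3298 CPM in Cdo1KKO/Sed, while the WT/Sed points of Fabp1 and Fabp4 spread widely.

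Levels per length ranked the members alike at the top in both groups. Slc27a2 led with 3738 ± 78.0 TPM (SD, n = 3) in WT/Sed versus 2376 ± 82.6 TPM in Cdo1KKO/Sed, followed by Cd36 (430 ± 15.6 and 449 ± 9.03 TPM), Lpl (372 ± 61.8 and 383 ± 33.0 TPM), Fabp3 (168.5 ± 10.4 and 140.4 ± 9.79 TPM) and Angptl4 (97.0 ± 16.4 and 68.7 ± 2.58 TPM). In WT/Sed the libraries of Cd36 and Lpl overlapped, although Cd36 was above Lpl in 3 of 3 libraries. Slc27a4 came next at 24.2 ± 0.493 TPM in WT/Sed versus 31.2 ± 0.447 TPM in Cdo1KKO/Sed. The lower ranks were not separated in WT/Sed, where Slc27a1 (21.7 ± 2.21 TPM), Fabp4 (18.1 ± 12.4 TPM), Fabp1 (11.6 ± 8.10 TPM) and Fabp5 (3.59 ± 0.144 TPM) each overlapped the next. In Cdo1KKO/Sed, Fabp4 (22.3 ± 2.07 TPM) and Slc27a1 (19.85 ± 0.852 TPM) overlapped, and Fabp5 (6.85 ± 0.813 TPM) stood above Fabp1 (2.30 ± 0.168 TPM) without overlap, the reverse of the order of their means in WT/Sed.

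**Figure D2:**
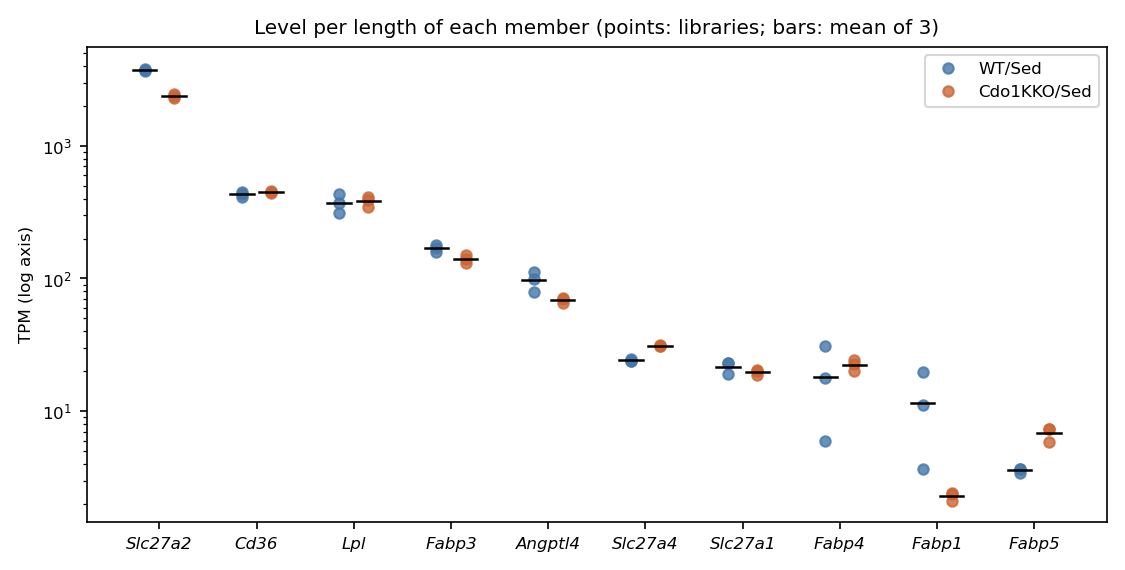
TPM of each member on a log axis, in order of the WT/Sed mean; points are the 3 libraries of each group and bars their mean. Slc27a2 lies at 3738 TPM in WT/Sed, above Cd36 at 430 TPM, and Fabp1 and Fabp5 change places between the groups.

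Slc27a2 (FATP2, ENSMUSG00000027359.16) makes very-long-chain acyl-CoA and takes up long-chain fatty acids at the proximal tubule membrane. The gene lies on chromosome 2, from 126552407 to 126588243 on the plus strand (GRCm38, GENCODE M21), with 10 exons in the principal transcript. It stood at 6166, 6138 and 6232.5 CPM in WT/Sed and at 3263, 3466.5 and 3164 CPM in Cdo1KKO/Sed. Every Cdo1KKO/Sed library was lower than every WT/Sed library, and the mean was 53.4% of the WT/Sed mean. The log2 fold change was -0.91 ± 0.05 (95% interval -1.01 to -0.81, adjusted p = 1.21e-07). In the same libraries 12 of 12 proximal tubule markers fell, with log2 fold changes from -0.93 to -0.46 and a median of -0.63. The value of Slc27a2 lay inside that range, near its lower end and below the median. With the TPM values 9 or 10 of the 12 markers fell. In RNA of kidney tissue, fewer proximal tubule cells and less of a transcript per cell cannot be told apart.

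Slc27a4 (FATP4, ENSMUSG00000059316.2), the other SLC27 member on chromosome 2 (29802634 to 29817522, plus strand, 13 exons), is an acyl-CoA synthetase of intracellular membranes. Its libraries held 48.2, 47.2 and 45.9 CPM in WT/Sed and 49.9, 51.7 and 51.2 CPM in Cdo1KKO/Sed. All Cdo1KKO/Sed values lay above the WT/Sed values by a small margin, and the log2 fold change of 0.11 ± 0.05 did not pass the test (95% interval -0.01 to 0.23, adjusted p = 0.129). With library size as the only scaling the value was 0.28 (adjusted p = 0.00175) and on log2(TPM + 1) it was 0.35 (adjusted p = 9.44e-04 by limma), so the call depends on the scaling. Within a library, the TPM of Slc27a2 was 154 ± 4.60 times that of Slc27a4 in WT/Sed and 76.1 ± 3.19 times in Cdo1KKO/Sed, a ratio that no scaling factor touches.

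Slc27a1 (FATP1, ENSMUSG00000031808.7; chromosome 8, 71568882 to 71587302, plus strand) is the SLC27 protein best known from muscle and fat, where insulin moves it to the cell surface. It was counted at 58.8, 49.9 and 58.4 CPM in WT/Sed and at 40.5, 44.7 and 43.2 CPM in Cdo1KKO/Sed. The groups did not overlap, with WT/Sed replicate 2 closest to the Cdo1KKO/Sed libraries. The fold change was -0.38 ± 0.07 (adjusted p = 0.00214), and on log2(TPM + 1) it was -0.12 (adjusted p = 0.268 by limma), where the call ended. Among the 6 SLC27 genes, Slc27a2 held 98.7% ± 0.0281 of the summed TPM in WT/Sed versus 97.8% ± 0.0656 in Cdo1KKO/Sed. Slc27a4 held 0.640% ± 0.0188 and 1.29% ± 0.0539, and Slc27a1 held 0.572% ± 0.0491 and 0.817% ± 0.0396. The other genes of the family were near absent. Slc27a3 stood at 2.15 ± 1.16 CPM in WT/Sed versus 1.97 ± 0.515 CPM in Cdo1KKO/Sed (-0.10 ± 0.36, adjusted p = 0.859), and Slc27a5, the bile acid ligase of liver, and Slc27a6 held 33 and 8 counts over all 6 libraries.

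Cd36 (ENSMUSG00000002944.15; chromosome 5, 17781690 to 17888801, minus strand) encodes a receptor for long-chain fatty acids and oxidised lipoproteins on tubule, endothelial and myeloid cells. Its values were 679, 663 and 695 CPM in WT/Sed and 595, 615 and 578 CPM in Cdo1KKO/Sed. The groups did not overlap, and the fall was small at 87.8% of the WT/Sed mean (-0.19 ± 0.05, 95% interval -0.29 to -0.08, adjusted p = 0.00996). That fall is of the size of the shift between scalings. With library size only the log2 fold change was -0.02 (adjusted p = 0.756), on log2(TPM + 1) it was 0.064 (adjusted p = 0.241 by limma), and without Cdo1KKO/Sed replicate 1 it was -0.19 with an adjusted p of 0.0613. Relative to Slc27a2, Cd36 was more abundant in Cdo1KKO/Sed. The TPM ratio of Cd36 to Slc27a2 was 0.115, 0.113 and 0.117 in the WT/Sed libraries and 0.1905, 0.186 and 0.191 in the Cdo1KKO/Sed libraries, without overlap.

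**Figure D3:**
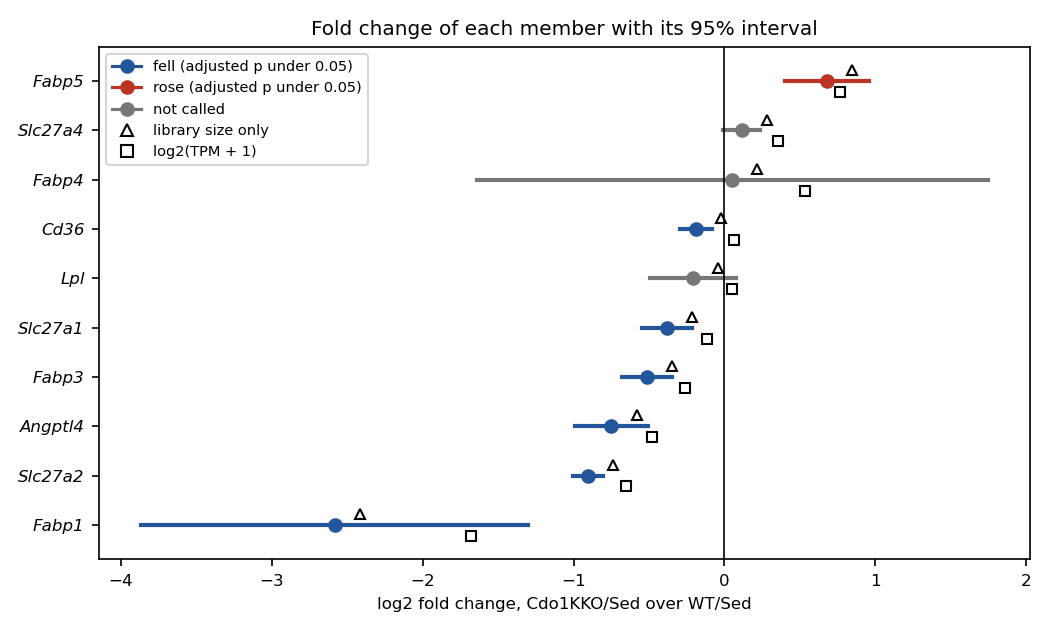
Log2 fold change of each member (filled circles, edgeR with TMM) with its 95% interval, coloured by call, beside the value with library size as the only scaling (triangles) and on log2(TPM + 1) (squares). Slc27a2, Angptl4, Fabp1 and Fabp3 stay below 0 in all 3, and Cd36 runs from -0.19 to 0.064.

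Fabp3 (heart-type FABP, ENSMUSG00000028773.8; chromosome 4, 130308595 to 130315463, plus strand, 4 exons), which serves fatty acid supply to oxidation in muscle, was the most abundant FABP in these kidneys. The libraries held 61.1, 65.7 and 56.5 CPM in WT/Sed and 39.5, 46.4 and 42.3 CPM in Cdo1KKO/Sed. The groups did not overlap and Fabp3 fell to 69.9% of the WT/Sed mean (-0.51 ± 0.08, adjusted p = 3.21e-04). Muscle markers were close to absent, with Ckm at 2 counts over 6 libraries and Actc1 and Myh4 at 0 counts in all, and the 8 markers summing to 1.41 to 2.59 CPM in WT/Sed versus 1.38 to 1.90 CPM in Cdo1KKO/Sed. The processed pseudogene Fabp3-ps1 held 78 counts over the 6 libraries, and how reads were shared between it and Fabp3 is not known from counts per gene. Fabp3 made up 79.4% ± 0.825 of the summed TPM of the FABP genes in WT/Sed versus 75.4% ± 1.80 in Cdo1KKO/Sed, and the summed TPM was 212 ± 15.4 and 186 ± 8.55.

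Fabp1 (liver-type FABP, ENSMUSG00000054422.7; chromosome 6, 71199827 to 71205023, plus strand, 4 exons) is the abundant FABP of hepatocytes and enterocytes and a known PPARα target. It was rare in these kidneys, at 106, 24 and 196 counts or 2.72, 0.900 and 4.77 CPM in WT/Sed, and at 14, 20 and 22 counts or 0.429, 0.503 and 0.480 CPM in Cdo1KKO/Sed. All Cdo1KKO/Sed libraries lay below WT/Sed, although WT/Sed replicate 2 was much closer to them than to the other WT/Sed libraries. The mean was 16.8% of that in WT/Sed (-2.58 ± 0.56, 95% interval -3.86 to -1.30, adjusted p = 0.00723). On log2(TPM + 1) over all genes above 0 it missed the threshold (-1.68, adjusted p = 0.0605 by limma). Hepatocyte markers were lower in the same libraries, the 8 summing to 162 to 234 CPM in WT/Sed versus 94.3 to 103 CPM in Cdo1KKO/Sed, with 2 of 5 tested falling (Ttr and Apoa2). The count was 4 without WT/Sed replicate 2 and 1 when replicate 1 of WT/Sed, or 1 of the Cdo1KKO/Sed libraries, was left out, and Apoa2 lost its call under 8 of 17 alternatives. Tat was at 0 counts in all libraries, Ahsg at 1 count in all, and Alb at 6.87 ± 0.708 CPM in WT/Sed versus 6.03 ± 0.823 CPM in Cdo1KKO/Sed (-0.19 ± 0.14, adjusted p = 0.325). The part of these markers in the fall of Fabp1 was not tested.

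Fabp5 (epidermal FABP, ENSMUSG00000027533.10) delivers fatty acids to PPARδ and is well known in macrophages, endothelium and keratinocytes. It was the one member that rose, from 5.37, 5.85 and 5.69 CPM in WT/Sed to 9.55, 7.90 and 9.59 CPM in Cdo1KKO/Sed. The groups did not overlap, and the mean was 159.9% of the WT/Sed mean (log2 fold change 0.68 ± 0.13, 95% interval 0.40 to 0.96, adjusted p = 0.00152). Its share of the FABP TPM was 1.70% ± 0.146 in WT/Sed versus 3.70% ± 0.579 in Cdo1KKO/Sed. Macrophage markers were higher in the same libraries, the 12 summing to 59.9 to 95.6 CPM in WT/Sed versus 122 to 130.3 CPM in Cdo1KKO/Sed, with 7 of 11 tested rising and 1 (Csf1r) falling. Without any 1 of the Cdo1KKO/Sed libraries 4 of the 11 rose, and 5 did without WT/Sed replicate 1. No macrophage marker was at 0 counts in all libraries, and the part of these cells in the rise of Fabp5 was not tested. The 7 markers of urothelium and squamous epithelium, where Fabp5 is also found, summed to 1.87 to 5.25 CPM in WT/Sed versus 2.49 to 3.46 CPM in Cdo1KKO/Sed, and 0 of 4 tested were called by edgeR, DESeq2 or limma-voom, with 0 at an unadjusted p under 0.05 in edgeR. The processed pseudogene Fabp5l2 held 2 counts over all libraries.

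Fabp4 (adipocyte FABP, ENSMUSG00000062515.3; chromosome 3, 10204088 to 10208576, minus strand) lies 187.5 kb from Fabp5 (10012548 to 10016607, plus strand) and is expressed in fat, macrophages and capillary endothelium. It ranged from 34.8 to 61.8 to 11.6 CPM over WT/Sed replicates 1, 2 and 3, and stood at 39.9, 33.8 and 37.1 CPM in Cdo1KKO/Sed. The WT/Sed libraries spanned the whole Cdo1KKO/Sed range on either side. No difference was detectable (0.05 ± 0.63, 95% interval -1.64 to 1.74, adjusted p = 0.963), and the interval is wide enough to hold a 2-fold change either way. The 11 endothelial markers moved with Fabp4 over the WT/Sed libraries, summing to 204, 345 and 90.8 CPM in replicates 1, 2 and 3, and to 308, 291 and 299 CPM in Cdo1KKO/Sed. By edgeR on all libraries 0 of the 11 were called, and 0 had an unadjusted p under 0.05. Without WT/Sed replicate 2, 1 of the 11 rose, and without WT/Sed replicate 3, 1 fell. DESeq2 and limma-voom also called 0. By limma 3 rose on log2(TPM + 1), 1 on log2(TPM + 0.1) and 0 on log2(TPM + 1) over all genes above 0. Fabp4 amounted to 17.1%, 17.9% and 12.8% of that sum in WT/Sed and to 13.0%, 11.6% and 12.4% in Cdo1KKO/Sed. Defining fat markers were near 0. Lep was at 0 counts in all libraries, Adipoq at 4, 0 and 0 counts in WT/Sed and 2, 4 and 0 counts in Cdo1KKO/Sed, and Plin1 at 0 counts in WT/Sed and 16 counts over the Cdo1KKO/Sed libraries. The 10 adipocyte markers summed to 2.89 to 4.62 CPM in WT/Sed versus 22.5 to 25.6 CPM in Cdo1KKO/Sed. The lipid droplet genes Plin4 (3.54 ± 0.770 and 20.4 ± 1.30 CPM) and Cidec (0.332 ± 0.170 and 3.13 ± 0.542 CPM), the only 2 tested, both rose. Whether these cells had a part in the level of Fabp4 was not tested.

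Among the FABP genes outside the members, Fabp7 (brain-type) was the one expressed, at 5.84 ± 0.605 CPM in WT/Sed versus 6.44 ± 0.742 CPM in Cdo1KKO/Sed (0.14 ± 0.14, adjusted p = 0.473). Intestinal Fabp2, ileal Fabp6, Fabp9 and Fabp12 held 5, 2, 1 and 8 counts over all libraries, and Pmp2 held 0. With the TPM values Fabp7 rose, at 0.36 on log2(TPM + 1) (adjusted p = 0.0170 by limma).

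Lpl (ENSMUSG00000015568.16; chromosome 8, 68880491 to 68907448, plus strand, 10 exons), which is made by parenchymal cells and moved to the capillary lumen by the endothelial protein GPIHBP1, was the third most abundant member. Its libraries held 1713, 1453 and 1979 CPM in WT/Sed and 1494, 1620.0 and 1334 CPM in Cdo1KKO/Sed. The groups overlapped because WT/Sed replicate 2 lay below 2 of the Cdo1KKO/Sed libraries, and the test was not passed (-0.21 ± 0.12, 95% interval -0.49 to 0.07, adjusted p = 0.220). Without WT/Sed replicate 2 the fall was -0.31 with an adjusted p of 0.0173, and on log2(TPM + 1) the value was 0.05. With no filter on low counts the value of -0.21 had an adjusted p of 0.0310.

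Angptl4 (ENSMUSG00000002289.16; chromosome 17, 33773750 to 33781830, minus strand, 7 exons), induced by fasting, hypoxia and PPAR ligands, fell. Its values were 154, 126 and 173 CPM in WT/Sed and 92.1, 92.3 and 85.5 CPM in Cdo1KKO/Sed, without overlap. The mean was 59.6% of the WT/Sed mean (-0.75 ± 0.10, 95% interval -0.99 to -0.51, adjusted p = 6.73e-04). The TPM of Lpl was 3.75, 3.90 and 3.87 times that of Angptl4 in the WT/Sed libraries and 5.48, 5.93 and 5.27 times in the Cdo1KKO/Sed libraries. The ratio was thus nearly the same in all WT/Sed libraries although both genes differed between them, and every Cdo1KKO/Sed ratio was higher. An exact permutation test of 3 against 3 libraries cannot go below p = 0.10, so no test of the ratios is given.

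Of the other genes that act on lipoprotein lipase or take up lipoproteins, 15 listed were in the deposited tables and 12 were tested. Of these, 4 rose and 3 fell with a median log2 fold change of -0.0014. With the TPM values 5 rose and 1 or 2 fell, without Cdo1KKO/Sed replicate 3 the counts were 2 and 2, and without Cdo1KKO/Sed replicate 1 they were 3 and 2. The lipase maturation factor Lmf1 fell from 20.6 ± 2.19 to 16.4 ± 0.911 CPM (-0.32 ± 0.09, adjusted p = 0.0184), with the call lost in every scaling by library size or TPM and without Cdo1KKO/Sed replicates 1 or 3 (adjusted p = 0.0889 and 0.0562). Sel1l, which helps Lpl leave the endoplasmic reticulum, rose from 119 ± 3.43 to 141 ± 4.14 CPM (0.24 ± 0.05, adjusted p = 0.00317). The anchor Gpihbp1 was rare at 3.78 ± 2.10 and 3.43 ± 0.527 CPM (-0.11 ± 0.36, adjusted p = 0.845). Among the inhibitors and cofactors, Angptl8 rose from 0.430 ± 0.220 to 1.37 ± 0.544 CPM (1.63 ± 0.44, adjusted p = 0.0132), a call lost without Cdo1KKO/Sed replicate 3 (adjusted p = 0.0917). The inhibitory apolipoprotein Apoc3 fell from 8.07 ± 1.89 to 3.61 ± 0.696 CPM (-1.17 ± 0.20) and endothelial lipase Lipg from 1.89 ± 0.768 to 0.484 ± 0.194 CPM (-1.97 ± 0.40), the latter call being lost on log2(TPM + 1) over all genes above 0 (-0.57, adjusted p = 0.0555 by limma). Of the lipoprotein receptors, Lrp1 rose from 10.6 ± 0.455 to 20.5 ± 0.452 CPM (0.96 ± 0.08, adjusted p = 6.64e-06). Vldlr (0.11 ± 0.06), Lsr (0.21 ± 0.21) and Apoc1 (-0.13 ± 0.67) were not called, Apoa5 held 0 counts, and Apoc2 and Lipc were below the filter.

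The WT/Sed libraries differed among themselves in several members, in an order shared with lists that hold none of them. Fabp1, Lpl and Angptl4 were lowest in replicate 2 and highest in replicate 3, and Fabp4 was the reverse. Cd36 and Slc27a2 had the order of Fabp1 by smaller margins, and Fabp3 had that of Fabp4. The 30 genes listed as PPAR targets, a list without any member, summed to 11272, 7296.5 and 14389 CPM in WT/Sed replicates 1, 2 and 3, the same order as Fabp1, Lpl and Angptl4. The Cdo1KKO/Sed sums lay close together at 8567, 8525 and 8589 CPM, inside the WT/Sed range. The endothelial sum had the opposite order in WT/Sed. Neither order was particular to these lists. The thick ascending limb sum, at 3649, 3139 and 4008 CPM in WT/Sed replicates 1, 2 and 3, had the order of the PPAR target sum. So did the hepatocyte sum, at 198, 162 and 234 CPM. The podocyte, fibroblast and pericyte, macrophage and proximal tubule sums had the order of the endothelial sum. The proximal tubule sum was mostly Kap (32402 ± 2582 CPM in WT/Sed), so its order need not hold for its other markers. Other cell types also differed between the groups: 5 of 6 thick ascending limb markers rose and 1 fell, 6 of 7 fibroblast and pericyte markers rose, 1 of 8 collecting duct markers rose and 2 fell, and 1 of 5 podocyte markers fell. With library size only, with the TPM values and without WT/Sed replicate 2, 4 of the 8 collecting duct markers rose and 2 fell. The podocyte count was 0 with the TPM values and without Cdo1KKO/Sed replicate 1 or 3, and 2 without WT/Sed replicate 3. Their part in the members' values was not tested. The coefficient of variation of Fabp1 and Fabp4 was 69.2% and 69.6% in WT/Sed against 8.07% and 8.30% in Cdo1KKO/Sed, while that of Slc27a2 was 0.787% and 4.68%. With 3 libraries a group, whether these spreads differ was not tested.

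**Figure D4:**
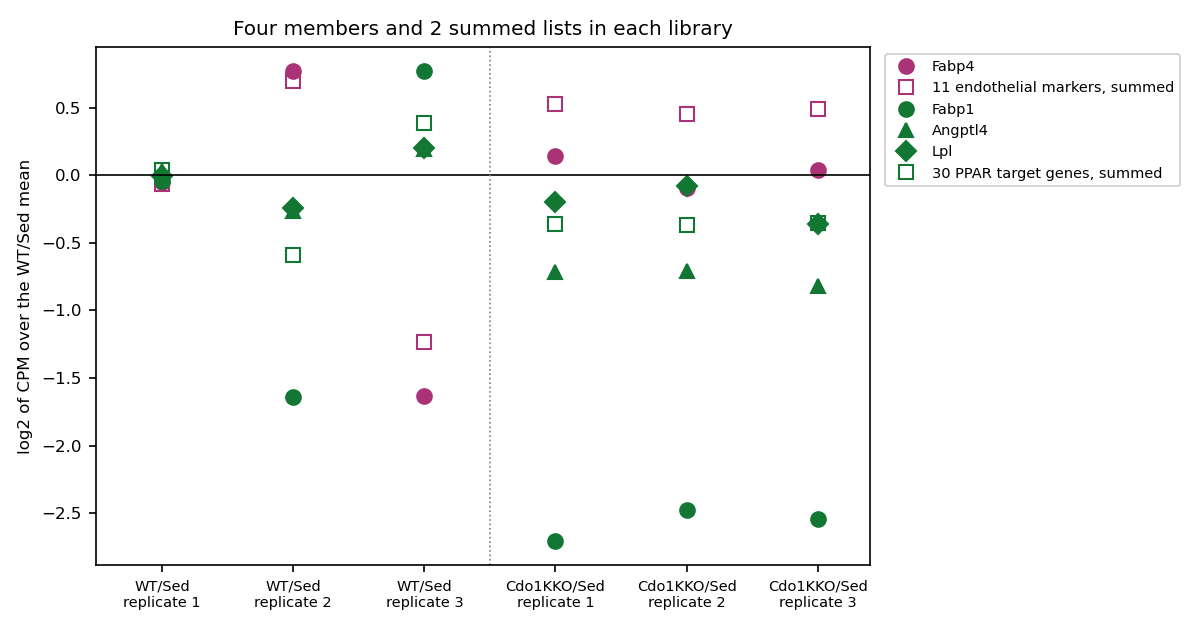
CPM of 4 members and of 2 summed lists in each library, as log2 of the value over the WT/Sed mean; green marks Fabp1, Angptl4, Lpl and the PPAR target sum, and magenta Fabp4 and the endothelial sum. In WT/Sed replicate 2 the green points lie below 0 and the magenta points above, and in replicate 3 the sides are exchanged. Some other members and summed lists, not drawn, had the same or the opposite order.

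The PPAR receptors and their targets were given the same test. Of 9 receptor and coactivator genes tested, 2 rose and 1 fell, with a median of 0.036. With library size only 4 rose and 0 fell, with the TPM values 4 or 5 rose and 0 fell, and 2 fell without WT/Sed replicate 2. Ppard rose from 14.8 ± 2.48 to 34.7 ± 1.66 CPM (1.24 ± 0.11, adjusted p = 8.69e-06) and the coactivator Ppargc1b from 3.86 ± 0.595 to 6.88 ± 0.679 CPM (0.84 ± 0.16, adjusted p = 0.00154). The partner Rxra fell from 127 ± 12.5 to 105.05 ± 9.45 CPM (-0.27 ± 0.08, adjusted p = 0.0266), a call lost in every scaling by library size or TPM, with replicate number as a block (adjusted p = 0.0796), and when replicate 1 of either group or replicate 3 of Cdo1KKO/Sed was left out. Ppara, named after its values were seen as the receptor most often tied to Fabp1, stood at 34.1 ± 9.15 and 33.4 ± 1.56 CPM (-0.03 ± 0.19, adjusted p = 0.907). Of 29 PPAR target genes tested, 8 fell and 2 rose, with a median of -0.33. The median became 0.059 on log2(TPM + 1), where 7 fell and 5 rose. Without WT/Sed replicate 2, 22 of the 29 fell, and in the other leave-outs 6 to 8 did, so this count rests on 1 library; DESeq2 had 12 falling. Acadm and Acaa1a, enzymes of mitochondrial and peroxisomal β-oxidation, fell by 0.71 ± 0.13 and 0.51 ± 0.06 on the log2 scale (adjusted p = 0.00406 and 5.48e-05). The 2 targets that rose were the lipid droplet coat gene Plin2, from 81.1 ± 7.005 to 901 ± 103 CPM (3.47 ± 0.10), and the hormone Fgf21, counted 0 times in WT/Sed versus 0.450 ± 0.0725 CPM in Cdo1KKO/Sed. Against the limit of 3 counts over the WT/Sed libraries (0.0281 CPM), the Cdo1KKO/Sed mean of Fgf21 was 16.0-fold higher. That ratio allows for no error in the Cdo1KKO/Sed mean and would be lower if a fragment adds 2 counts. The median of the list is not moved by Fgf21 at that ratio.

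Genes that act on the fatty acid after it has crossed the membrane moved in both directions. Of 10 acyl-CoA synthetases and acyl-CoA or lipid carriers tested, 3 rose and 1 fell (median 0.17), and 5 rose and 1 fell with library size only or the TPM values. Without WT/Sed replicate 2, 2 fell. Acsl4, which prefers arachidonate, rose from 57.1 ± 9.24 to 179 ± 6.55 CPM (1.64 ± 0.11, adjusted p = 6.19e-06), and Acsl5 from 60.7 ± 2.19 to 84.25 ± 0.609 CPM (0.47 ± 0.05, adjusted p = 3.74e-05). Acbd3 rose by 0.26 ± 0.06 (adjusted p = 0.00531). The peroxisomal sterol carrier Scp2 fell from 1116.5 ± 20.7 to 784 ± 23.7 CPM (-0.51 ± 0.05, adjusted p = 1.01e-05). Of 10 other genes tied to entry at the membrane, 5 rose and 2 fell (median 0.19), and 6 rose and 0 fell with the TPM values. The lysosomal CD36 relative Scarb2 rose from 41.6 ± 1.29 to 84.9 ± 2.48 CPM (1.03 ± 0.05, adjusted p = 1.61e-07) and Cav2 from 47.7 ± 1.46 to 60.2 ± 4.96 CPM (0.34 ± 0.07, adjusted p = 0.00243). Havcr1, the injury receptor that binds oxidised lipid and takes up palmitate-bound albumin, rose from 10.2 ± 6.39 to 414 ± 52.6 CPM (5.29 ± 0.56, adjusted p = 0.00262). The albumin receptor Lrp2 (megalin) fell by 0.46 ± 0.06 on the log2 scale (adjusted p = 2.07e-04), and with the TPM values this call ended (-0.21, adjusted p = 0.0533 by limma).

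**Figure D5:**
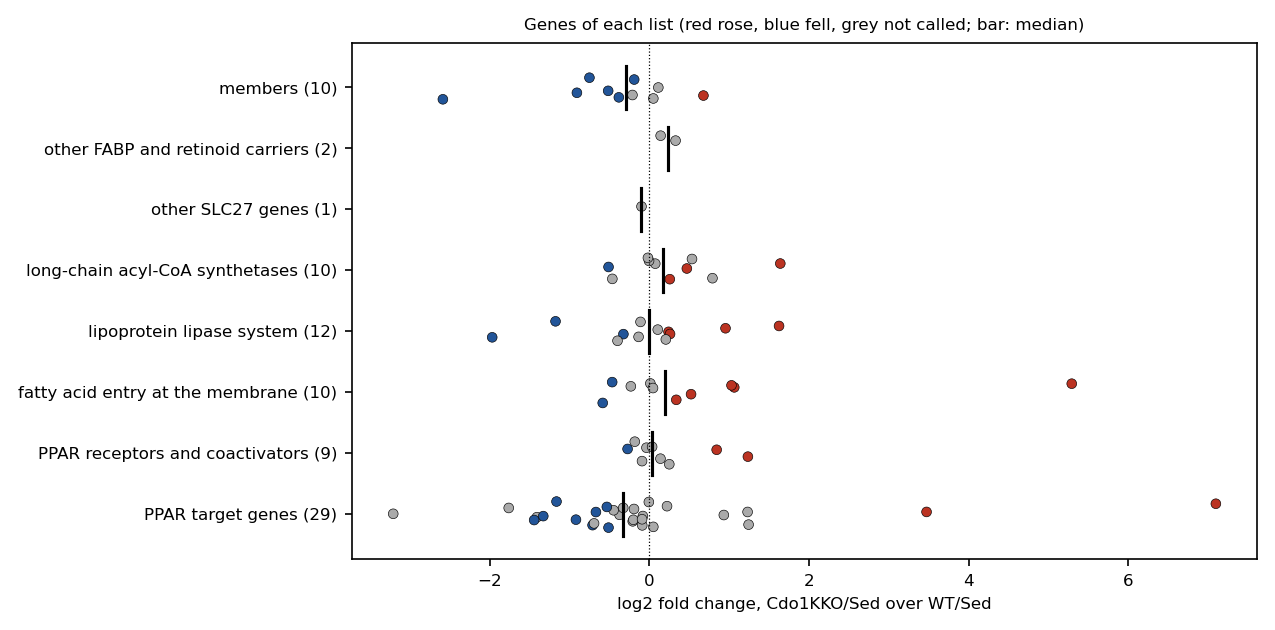
Log2 fold change of every tested gene of the members and of 7 related lists (number tested in brackets); red points rose, blue points fell and black bars are medians. The members have a median of -0.30 and the PPAR targets of -0.33, and the far right point of the PPAR targets is Fgf21, whose fitted value rests on 0 counts in WT/Sed.

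Across the 6 libraries, the protein-coding genes whose log2 CPM followed a member most closely gave Pearson correlations of 0.9867 to 0.9996. They were C1qtnf3 and Ppa2 for Slc27a2, Ranbp3l and Chdh for Angptl4, and Mmd and Hsd17b4 for Fabp1. For Fabp3 they were Tm7sf2 and Baiap2l2, for Fabp5 Kctd10 and Slc4a8, and for Cd36 Mgme1 and Mchr1. The genes closest to Fabp4 were Exoc3l2 and Tmem47, those closest to Lpl Slc10a2 and Slc25a44, those closest to Slc27a1 Marchf9 and Tusc3, and those closest to Slc27a4 Spryd7 and Syne1. All libraries share the division into 2 groups, which alone gives genes that changed a high correlation. Among the members, Fabp1 and Angptl4 correlated at 0.97, Cd36 and Slc27a2 at 0.97, and Lpl and Fabp4 at -0.81.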

How the data were processed

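Gene expression was measured by RNA sequencing in 3 WT/Sed and 3 Cdo1KKO/Sed kidney libraries. The authors deposited whole-number counts per gene and TPM per gene; TPM divide by gene length and library total. The submitters' processing notes name fastp 0.23.4 and the builds GRCm38 and mm10, and which aligner, counter and annotation were used, and whether by strand, is not given in the sources used here. Of the counts from 1 to 20, 71.6% to 74.5% were even, so a fragment may add 2 counts and limits from low counts, which cover counting error only, may be too narrow. Depth was 28145261 to 43872779 counts per library.

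The counts were fitted in R 4.3.3 with edgeR 4.0.16: filterByExpr left 17194 of 55401 genes, scaling was by TMM, and a robust quasi-likelihood F test had genotype as its only term. P values were adjusted by Benjamini and Hochberg over all genes tested. TPM values were tested with limma 3.58.1. All value columns were matched to libraries, and all 10 members had the same versioned identifier in GENCODE M21. P values measure the spread between these libraries, which differed by more than counting noise. Chi-square per degree of freedom was 11.7 to 36.75 for pairs of WT/Sed libraries and 3.39 to 7.33 for pairs of Cdo1KKO/Sed libraries. The fit shared each gene's dispersion between the groups. Same-numbered libraries of the groups did not deviate together (correlations -0.002 to 0.013), and the labels tie the numbers to no litter or batch.

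The members and gene lists were chosen with earlier results of these data known. Genes were named by a rule: the members, Cdo1, up to 4 genes with the smallest p in each list, every tested gene of the lists of other carriers, other SLC27 genes and the lipase system, and the 2 genes most correlated with each member. A few genes that this rule names are not reported here. Kap, Csf1r, Ttr, Apoa2, Ppara, Plin4, Cidec and single marker genes near 0 counts were named after their values were seen. Alternatives were other scalings, DESeq2 1.42.0, limma-voom, other filters, TPM, the replicate block and leaving out each library. Figures used matplotlib 3.10.9 in Python 3.11.15.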

Additional observations from a re-analysis of the deposited data

How the results depend on the processing

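The members called as rising and falling numbered 1 and 6 with TMM, RLE, DESeq2 and limma-voom. With library size as the only scaling 2 rose and 5 fell. On log2(TPM + 1) and log2(TPM + 0.1) 2 rose and 4 fell, and with all genes above 0 on log2(TPM + 1) 2 rose and 3 fell. The fold change of Cd36 turned to 0.064 in each of these 3 TPM settings (adjusted p 0.237 to 0.315 by limma). The share of rises among all calls was 50.5% with TMM, 76.6% with library size only and 84.5% on log2(TPM + 1), and the cause was not tested. Without each library in turn, 1 member rose and 5 to 7 fell, and 4682 to 7320 genes were called against 6435. Without filtering 7 members fell. With a minimum of 1 CPM 5 did, since Fabp1 was not tested. With the replicate block 6146 genes were called, 3117 rising and 3029 falling, and 1 member rose and 6 fell; the labels do not say that the numbers pair the mice. Values under the alternatives were counted only for the genes named by the rule, many picked for the smallest p in their list. They therefore do not describe calls over all genes. Of the values of such named genes called with TMM, 866 kept direction and call, 46 lost the call and 3 changed sign. Of the values of named genes not called, 377 kept their direction, 58 changed sign without a call and 36 gained a call. Depth limits Fabp1 and Fgf21, which rest on 14 to 196 and 0 to 22 counts a library. It also limits other genes such as Angptl8 and Lipg, at 5 to 89 and 12 to 74 counts a library.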
